A study of Mus musculus with 13 samples.

Results

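The genes described here encode the secreted ligands, receptors, extracellular antagonists, Smad proteins and Id target genes of signalling by transforming growth factor beta (TGF-beta), activin and bone morphogenetic proteins (BMPs). They were a list of 51 gene symbols, chosen with earlier results of these data known. Each was measured by the probe set that carried its symbol alone and had the highest mean over all arrays, which gave values for 49 of the 51 members among 18193 named genes. The signals of Bmp3 and Gdf15 were not analysed here.

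Messenger RNA came from cultured prostate progenitor/stem cells of 10 wk old mice at passage 22, with the genotype labelled wild-type B1/6; 127/SVEV, and the labels do not say how many animals gave the cells. Cultures received 100 nM 1,25-dihydroxyvitamin D3 (1,25D), the hormonal form of vitamin D, or its solvent ethanol at 0.1% (vehicle). Exposure lasted 6 h, with 3 vehicle and 3 treated arrays, or 48 h with renewal each day, with 3 vehicle and 4 treated arrays. All values are log2 signals and all changes are differences of group means on that scale, so a change of 1 is 2-fold. The number of arrays limits the precision. Nothing in the labels says that replicates were separate cultures, so p-values measure only the spread between these arrays, which may be technical.

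In this family a ligand dimer brings together type I and type II receptor kinases, and the type I receptor phosphorylates receptor-regulated Smads, which enter the nucleus with Smad4. TGF-beta and activin act mainly through Smad2 and Smad3, and BMPs through Smad1, Smad5 and Smad9. Antagonists such as follistatin bind ligands outside the cell, while Smad6, Smad7 and the Smurf ubiquitin ligases limit the signal inside it. In prostate epithelium TGF-beta is known mainly as a brake on growth.

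Array quality touched these results in one way. The middle spread of signals (interquartile range) was 3.03 in vehicle 6 h replicate 1 and 2.95 in 1,25D 48 h replicate 4, whereas the remaining 11 arrays had 3.27 to 3.46. These arrays, which stand apart from the rest, were kept, and values without both are given beside the calls they change. Vehicle 48 h replicate 2 had a spread of 3.28, but its deviations from its group means correlated with theirs (0.595 and 0.63 over named genes). It remained in the fits without both. The cells carried strong basal signals, with Krt14 at 13.98 and Krt5 at 12.66 as means over all arrays, and strong Krt8 (13.60) and Krt18 (13.52), which mark luminal cells. The luminal secretory gene Pbsn was at 3.72, among the lowest 5.91% of probe sets. The 10 stromal markers ran from 4.02 (Lum) to 6.64 (Acta2), with Acta2, Des (6.21) and Pdgfrb (5.76) above the median of all probe sets and the others below it. Cyp24a1, the enzyme that degrades 1,25D and a direct target of its receptor, was higher in treated cells by 8.496 at 6 h and 7.83 at 48 h (limma adjusted p = 3.3e-11 and 4e-11), which checks the treatment labels.

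A gene was called at a Benjamini-Hochberg adjusted p under 0.05 over all 45037 probe sets in limma. Within the family, 2 of 49 members were called at 6 h and 3 of 49 at 48 h. At 6 h Tgfbr3, the TGF-beta coreceptor betaglycan, rose 2.73-fold and Fst, the activin antagonist follistatin, fell by 1.01 on the log2 scale. At 48 h Tgfbr3 (2.63-fold) and the ligand Bmp4 (1.86-fold) rose and the ligand Tgfb2 fell by 0.76. Among all named genes 0.852% were called at 6 h and 2.39% at 48 h, against 4.08% and 6.12% of the members. The median change of the members was -0.05 at 6 h and 0.00 at 48 h, and over all genes -0.02 and 0.00, so the medians of the family and of all genes lay close to 0 at both times. Of named genes 0.687% rose and 0.165% fell at 6 h, and 1.43% rose and 0.951% fell at 48 h, against 1 and 1, and 2 and 1, of the members.

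**Figure D1:**
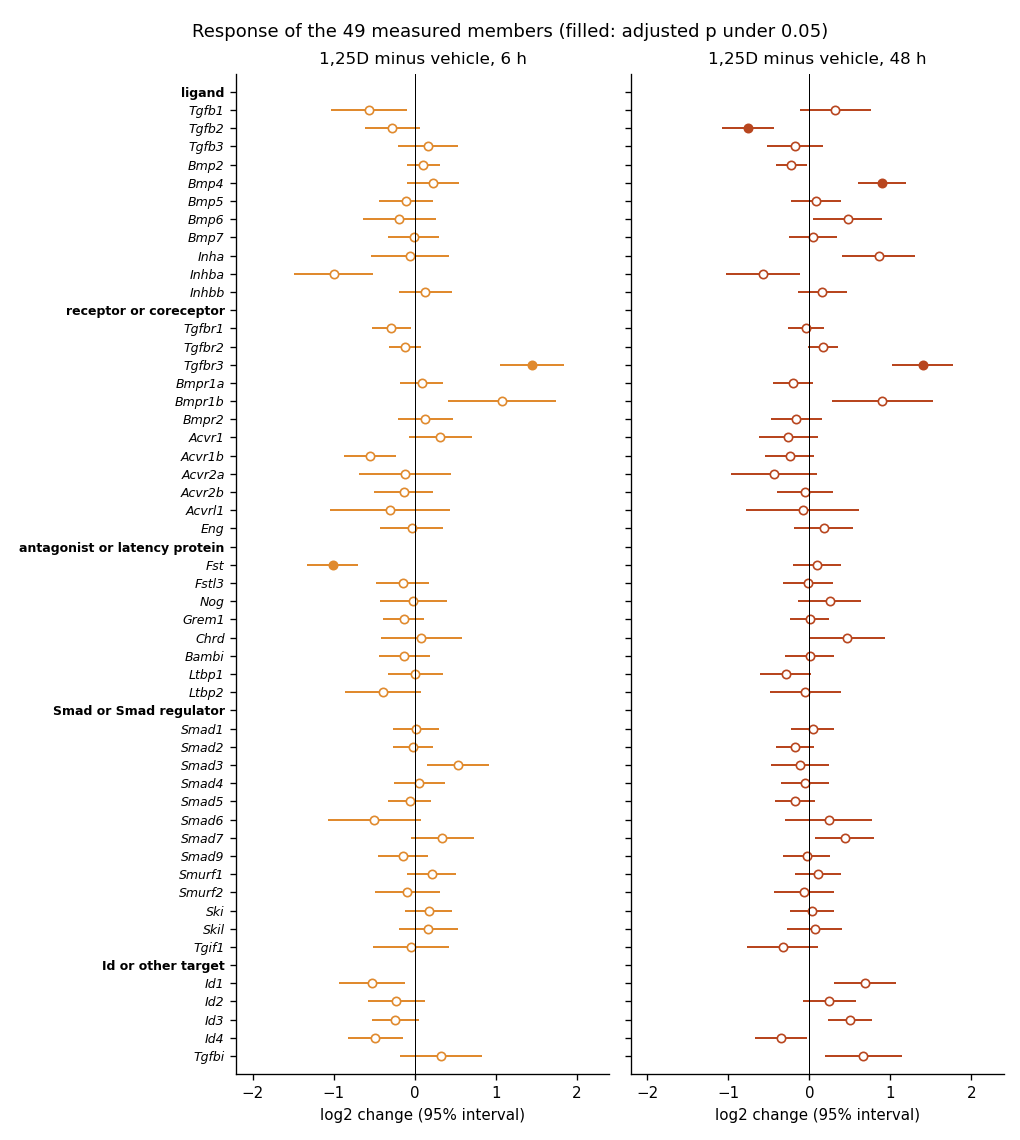
Change in log2 signal, 1,25D minus vehicle, at 6 h and at 48 h for the 49 measured members, ordered by role. Points are differences of group means with 95% intervals from limma, and filled points are called. Tgfbr3 stands to the right at both times, Fst to the left at 6 h alone, and most Smad intervals span 0.

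RefSeq windows of 250 bases before the gene start (build GRCm38.p6) are shown for Bmp4 and Tgfb2, the ligand genes called at 48 h, which moved in opposite directions. Capitals mark any match, on either strand, to the following motifs. AGGTCA and GGTTCA are hexamers found in vitamin D receptor elements, and no other hexamer of such elements was searched. CAGAC is a core of Smad binding elements, and GGCGCC is a GC-rich element bound by BMP Smads.
Bmp4, chr14:46390670-46390919, minus strand: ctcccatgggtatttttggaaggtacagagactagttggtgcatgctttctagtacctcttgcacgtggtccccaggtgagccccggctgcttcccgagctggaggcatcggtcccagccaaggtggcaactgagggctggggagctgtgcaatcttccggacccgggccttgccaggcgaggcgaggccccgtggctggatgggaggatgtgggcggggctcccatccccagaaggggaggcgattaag
Tgfb2, chr1:186705990-186706239, minus strand: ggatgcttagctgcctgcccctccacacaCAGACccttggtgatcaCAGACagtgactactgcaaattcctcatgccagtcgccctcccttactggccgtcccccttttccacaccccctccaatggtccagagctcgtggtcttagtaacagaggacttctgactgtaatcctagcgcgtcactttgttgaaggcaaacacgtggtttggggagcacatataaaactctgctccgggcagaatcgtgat
The Tgfb2 window held 2 CAGAC matches on the strand shown, beginning at positions -221 and -204 counted from the gene start, and none of the other motifs. The Bmp4 window held no match to any of the 4 motifs. CAGAC occurred in 42.2% of 32851 such windows of all genes, AGGTCA in 14.0%, GGTTCA in 8.85% and GGCGCC in 9.59%. Among 48 windows of the 37 members with one, the shares were 54.2% for CAGAC, 12.5% for AGGTCA, 10.4% for GGTTCA and 25.0% for GGCGCC. These windows include 2 of Gdf15, a listed member whose signal was not analysed. These matches are letters in a window and not binding sites.

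Among the ligands, Bmp4 changed at 48 h. BMP4 is a morphogen that restrains ductal budding in the developing prostate. Its signal was 9.62, 10.10 and 10.12 in vehicle at 48 h and 10.92, 10.64, 10.92 and 10.89 in treated cells. All 4 treated arrays lay above all vehicle arrays, by a rise of 0.90 (SE 0.13, limma adjusted p = 0.00255). At 6 h the vehicle signals were 10.00, 10.21 and 9.99 and the treated signals 10.43, 10.10 and 10.34. These groups overlapped, and the difference of 0.22 (SE 0.14, limma adjusted p = 0.971) was not called. The response at 48 h exceeded that at 6 h by 0.68, with a 95% interval of 0.25 to 1.10 and a limma adjusted p of 0.365, so a difference between the times was not called for Bmp4. The call at 48 h held under every alternative and with each array left out, with changes from 0.73 to 0.99.

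Tgfb2 encodes the TGF-beta 2 ligand. Its signals at 48 h were 6.36, 5.90 and 6.16 in vehicle and 5.53, 5.43, 5.28 and 5.30 in treated cells. The groups did not overlap, and Tgfb2 fell by 0.76 (SE 0.14, limma adjusted p = 0.016). In vehicle cells at 6 h it was 5.25, 5.59 and 5.53, which is where the treated cells at 48 h also lay. The call was lost without vehicle 48 h replicate 1 (adjusted p = 0.114), vehicle 48 h replicate 3 (0.0829) or 1,25D 48 h replicate 3 (0.0626), and adjusted p over all alternatives ran from 0.000676 to 0.114. Of the 3 other Tgfb2 probe sets none was called at 48 h, with changes of -0.02, -0.42 and -0.48. These probe sets, like the one used, lay below the median signal of all probe sets, so an unknown part of each value is background.

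The other TGF-beta ligands were not called for the hormone. Tgfb1 had signals of 8.28, 8.70 and 8.59 in vehicle and 8.06, 7.82 and 7.999 in treated cells at 6 h. The groups did not overlap, and the difference of -0.57 (SE 0.21) had a limma adjusted p of 0.633. At 48 h they overlapped, with a difference of 0.32 (95% interval -0.11 to 0.75). Tgfb3 differed by 0.16 at 6 h and -0.18 at 48 h, and the 95% interval at 48 h was -0.52 to 0.15. Of the remaining BMP ligands, Bmp6 was separated at 48 h (5.42 to 5.62 in vehicle, 5.89 to 6.14 in treated cells, difference 0.47, adjusted p = 0.547). Bmp2, Bmp5 and Bmp7 had differences between -0.22 and 0.11 over both times. Bmp2 had a mean signal of 3.61, among the lowest 3.6% of probe sets, so its level cannot be read from this array.

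Activins are dimers of inhibin beta subunits, and a dimer of a beta subunit with the alpha subunit is an inhibin, which opposes activin with the coreceptor betaglycan. Inhba, the beta A subunit, had signals of 10.30, 10.68 and 9.95 in vehicle and 9.42, 9.31 and 9.20 in treated cells at 6 h. Every treated array was below every vehicle array, with a difference of -0.9996 (SE 0.22), but the limma adjusted p was 0.0753. This result lay near the threshold: without vehicle 6 h replicate 3 it was called (-1.18, adjusted p = 0.0416), as it was without 1,25D 48 h replicate 2 (adjusted p = 0.0234), while over all alternatives adjusted p ran from 0.0234 to 0.293. At 48 h the signals were 9.04 to 9.28 in vehicle and 8.17 to 9.06 in treated cells, which overlapped (-0.57, adjusted p = 0.39).

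Inha, the alpha subunit, had signals of 6.59, 6.21 and 6.62 in vehicle and 7.68, 7.29, 7.47 and 6.88 in treated cells at 48 h. All treated arrays were above all vehicle arrays, and the difference of 0.86 (SE 0.20) had a limma adjusted p of 0.0631. Replicate 4, the lowest treated array for Inha, is one of the arrays that stand apart. Without it the difference was 1.01 (adjusted p = 0.0122), without vehicle 6 h replicate 1 it was 0.86 (adjusted p = 0.0453), and over all other single arrays left out adjusted p reached 0.341. Without both arrays that stand apart Inha was called at 48 h (1.01, adjusted p = 0.00362) and its response differed between the times (1.21, adjusted p = 0.0427), against 0.91 (adjusted p = 0.503) with them. At 6 h Inha was 5.51 to 6.09 in vehicle and 5.50 to 5.94 in treated cells. Inhbb, the beta B subunit, differed by 0.13 at 6 h (95% interval -0.18 to 0.44) and 0.16 at 48 h (-0.13 to 0.45).

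**Figure D2:**
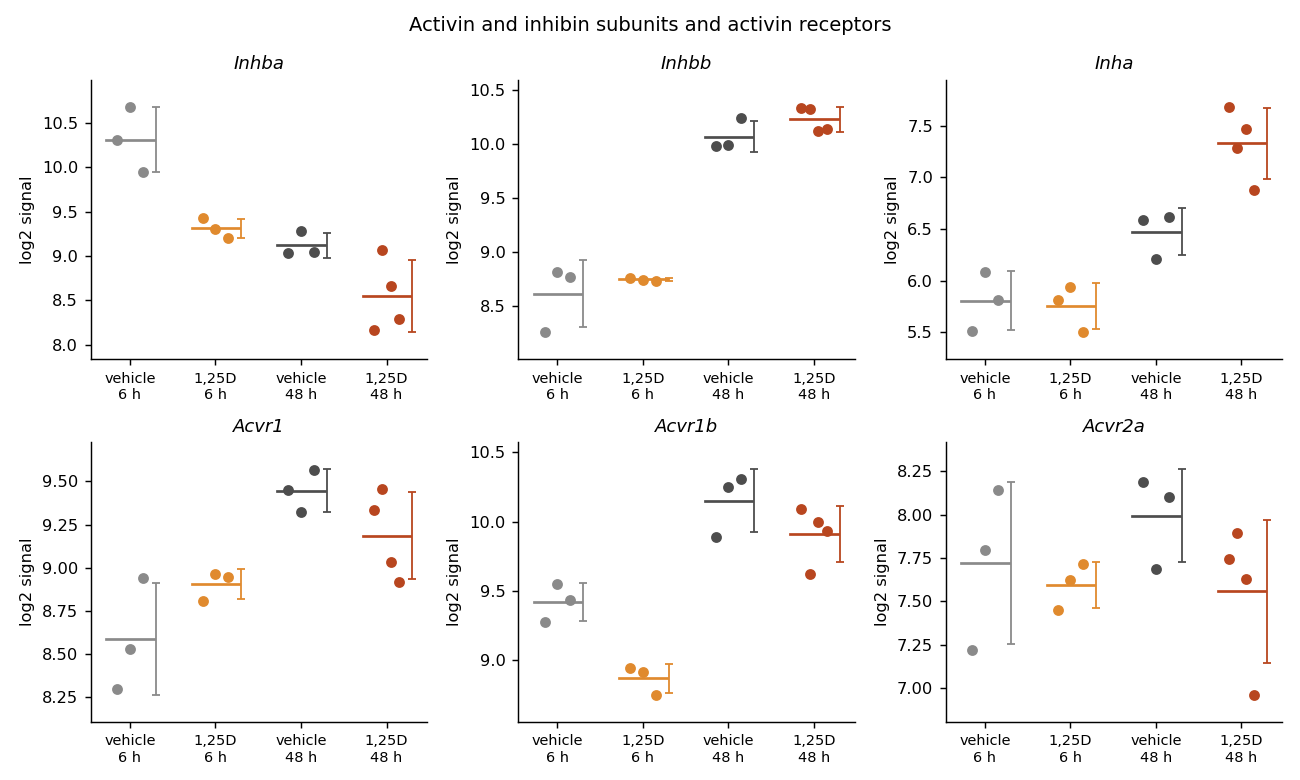
Log2 signal on each array for the activin and inhibin subunit genes Inhba, Inhbb and Inha and for 3 activin receptor genes, by group. Points are arrays, horizontal lines group means and bars 1 SD (n = 3, or 4 for 1,25D at 48 h). Inhba is high in vehicle at 6 h (9.95 to 10.68) and at most 9.42 in every other group, and Inhbb separates by time alone.

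Among the receptors, Tgfbr3 alone was called, at both times. Betaglycan lacks a kinase of its own and presents TGF-beta 2 and inhibin to the signalling or inhibited receptors. At 6 h Tgfbr3 gave 6.50, 7.07 and 7.24 in vehicle and 8.30, 8.61 and 8.25 in treated cells, a rise of 1.45 (SE 0.18, limma adjusted p = 0.000963). At 48 h it gave 8.52, 8.52 and 8.59 in vehicle and 10.05, 9.93, 9.71 and 10.07 in treated cells, a rise of 1.40 (SE 0.17, limma adjusted p = 0.000384). The groups were apart at both times by more than 1 on the log2 scale. Treated cells at 6 h reached about the level of vehicle cells at 48 h. The rises at the 2 times differed by -0.05, with a 95% interval of -0.58 to 0.48. A second, dimmer Tgfbr3 probe set with a mean signal of 5.75 was not called (0.13 at 6 h and 0.41 at 48 h). Both calls held in each of 24 alternatives, with changes of 1.23 to 1.60 at 6 h and 1.34 to 1.48 at 48 h.

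The kinase receptors for TGF-beta were not called. Tgfbr1, the type I receptor, differed by -0.29 at 6 h (95% interval -0.52 to -0.06, limma adjusted p = 0.591) and by -0.04 at 48 h (-0.26 to 0.17). Tgfbr2, the type II receptor, differed by -0.12 (-0.30 to 0.06) and 0.17 (0.00 to 0.34). Over both genes and times every interval of the probe sets used stayed well inside a 2-fold difference. The other Tgfbr1 probe sets, both dimmer, differed by 0.19 and -0.10 at 6 h and by -0.22 and -0.10 at 48 h. The other Tgfbr2 probe sets, also dimmer, differed by -0.005 and 0.05 at 6 h and by 0.15 and 0.12 at 48 h. None of these was called, and no intervals were taken for them.

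Bmpr1b, a type I BMP receptor, showed wide differences that were not called. At 6 h its signals were 5.46, 6.51 and 6.59 in vehicle and 7.12, 7.48 and 7.20 in treated cells, a difference of 1.08 (SE 0.30, limma adjusted p = 0.245). At 48 h they were 5.31, 4.98 and 5.46 against 6.43, 6.47, 6.22 and 5.50, a difference of 0.90 (SE 0.28, adjusted p = 0.243). Treated arrays lay above vehicle arrays at both times, and the low values within 2 of the groups were those of the arrays that stand apart. Without 1,25D 48 h replicate 4 the difference at 48 h was 1.12 (adjusted p = 0.046), and without both arrays its adjusted p was 0.000662, whereas over all single arrays left out it reached 0.726. At 6 h the low array was in vehicle, so leaving it out narrows the difference. Bmpr1b was not called at 6 h without that array or without both. Neither of the 2 other Bmpr1b probe sets was called. Bmpr1a and Bmpr2, the widely expressed BMP receptors, had differences between -0.20 and 0.13 over both times in the probe sets used. The other Bmpr1a probe sets differed by -0.65, -0.58, -0.47, -0.04 and 0.12 at 48 h, and none was called.

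Of the activin receptors, Acvr1b, the type I receptor ALK4, was separated at 6 h, with 9.28, 9.55 and 9.44 in vehicle and 8.94, 8.92 and 8.75 in treated cells. Its difference of -0.55 (SE 0.15) had a limma adjusted p of 0.186, and at 48 h it was -0.24. Acvr1 differed by 0.32 and -0.26 at the 2 times, Acvr2a by -0.12 and -0.44, and Acvr2b by -0.13 and -0.05, all without a call. A second Acvr2a probe set lay nearer the threshold at 48 h, with -0.57 (limma adjusted p = 0.072), and had -0.215 at 6 h. The other Acvr1 probe sets differed by -0.37 and 0.03 at 48 h without a call. Acvrl1 and Eng, receptors best known in endothelium, differed by -0.30 to 0.18 over both times. The 4 endothelial markers had mean signals of 4.21 (Tek) to 5.49 (Kdr), all below the median of all probe sets.

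**Figure D3:**
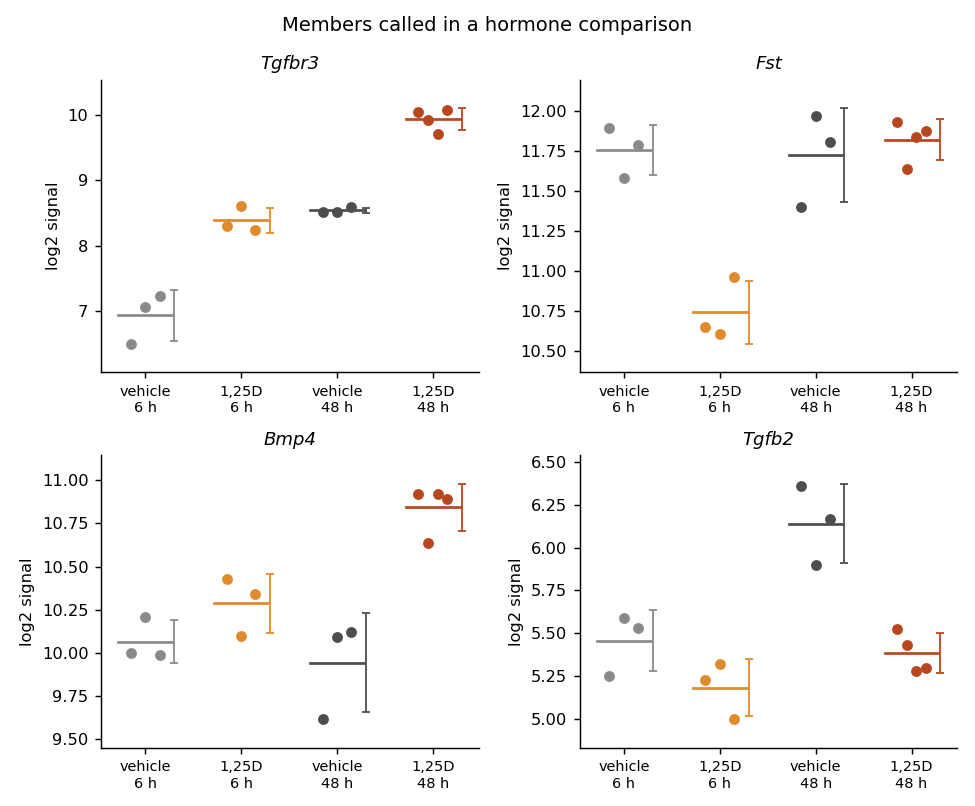
Log2 signal on each array for Tgfbr3, Fst, Bmp4 and Tgfb2, the members called in a hormone comparison. Points are arrays, horizontal lines group means and bars 1 SD (n = 3, or 4 for 1,25D at 48 h). Fst is low only in 1,25D at 6 h (10.61 to 10.97, against at least 11.40 elsewhere), Tgfbr3 is higher with 1,25D at both times, and Bmp4 is higher and Tgfb2 lower with 1,25D at 48 h.

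Among antagonists, Fst was the member whose response depended on time. Follistatin wraps around activin and blocks both receptor sites. Its signals at 6 h were 11.89, 11.58 and 11.79 in vehicle and 10.65, 10.61 and 10.97 in treated cells. All treated arrays were lower, and Fst fell by 1.01 (SE 0.14, limma adjusted p = 0.00263). At 48 h the signals were 11.40, 11.97 and 11.81 in vehicle and 11.93, 11.63, 11.84 and 11.87 in treated cells. These overlapped, with a difference of 0.10 (95% interval -0.19 to 0.38). A second Fst probe set fell by 0.77 at 6 h (adjusted p = 0.00847) and differed by -0.07 at 48 h.

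The test of the difference between the responses called Fst (1.11, SE 0.20, limma adjusted p = 0.0256), 1 of 49 members (2.04%), against 0.632% of all genes, of which 0.346% were higher and 0.286% lower. Unadjusted p was under 0.05 for 13 members and 7.23% of all genes. This call was marginal. Adjusted p was 0.0603 without vehicle 6 h replicate 1, 0.0654 without vehicle 6 h replicate 3, and 0.0939 and 0.0812 without 1,25D 6 h replicates 1 and 2. It was 0.0586 without vehicle 48 h replicate 3, and 0.0668 and 0.0634 without 1,25D 48 h replicates 1 and 3. It was 0.0571 without both arrays that stand apart. Its range over all alternatives was 0.00775 to 0.0939, with differences from 0.95 to 1.23. The second Fst probe set gave 0.70 (adjusted p = 0.17) for the same difference.

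None of the 7 other antagonists and latency proteins was called for the hormone. At 6 h their differences ran from -0.39 (Ltbp2) to 0.08 (Chrd), and at 48 h from -0.29 (Ltbp1) to 0.46 (Chrd). Chordin, noggin and gremlin bind BMPs, Fstl3 is a relative of follistatin, and Bambi is a decoy receptor. Grem1, Nog and Bambi had mean signals of 5.04, 5.19 and 4.73, below the median of all probe sets. Ltbp1, which tethers latent TGF-beta to the matrix, was separated at 48 h (10.35 to 10.52 in vehicle, 9.99 to 10.28 in treated cells, adjusted p = 0.773).

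No Smad or Smad regulator was called for 1,25D by limma at 6 h or 48 h, and 1 of 13 at each time had an unadjusted p under 0.05, against 7.01% and 10.3% of all genes, which is near the background. Smad4, the common partner, differed by 0.06 at 6 h (95% interval -0.24 to 0.36) and -0.05 at 48 h (-0.33 to 0.23). The BMP effector Smad1 differed by 0.01 (-0.26 to 0.28) and 0.04 (-0.21 to 0.30), and Smad5 by -0.06 and -0.18. For the TGF-beta effector Smad2 the differences were -0.02 (-0.26 to 0.21) and -0.17 (-0.40 to 0.05). For the probe sets used, these intervals leave room for small differences but not for 2-fold ones. Other Smad5 probe sets differed by -0.33 and 0.14 at 6 h and by -0.27 and -0.53 at 48 h, without a call. No intervals were taken for other probe sets, so 2-fold differences are not excluded there. In the probe sets used, the 48 h intervals of all 13 Smads and regulators lay within 2-fold in either direction. At 6 h those of 12 did, with Smad6 (-0.50, 95% interval reaching beyond -1) as the exception.

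Smad3, the other TGF-beta effector, was 8.23, 8.43 and 8.88 in vehicle and 9.08, 9.23 and 8.84 in treated cells at 6 h, which overlapped (0.54, SE 0.17, limma adjusted p = 0.424). Its difference at 48 h was -0.11. Smad7, an inhibitory Smad induced by the pathway it blocks, was 8.04, 8.40 and 8.44 in vehicle and 8.53, 8.66 and 8.72 in treated cells at 6 h. At 48 h it was 7.57 to 8.06 against 7.91 to 8.47. The groups were apart at 6 h and overlapped at 48 h, with differences of 0.34 (adjusted p = 0.903) and 0.44 (adjusted p = 0.453). The nuclear corepressors Ski, Skil and Tgif1 and the ligases Smurf1 and Smurf2 had differences between -0.33 and 0.21 in the probe sets used. At 6 h and 48 h a second Skil probe set differed by 0.48 and -0.21, and a second Smurf1 probe set by 0.03 and 0.48. The other Smurf2 probe sets differed by -0.16 and 0.27 at 6 h and by -0.17 and -0.25 at 48 h. A second Ski probe set differed by 0.21 and 0.06 at the 2 times, and none of these was called.

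The Id genes encode helix-loop-helix proteins that block differentiation factors, and Id1 to Id3 are among the best known direct targets of BMP Smads. None was called for 1,25D at either time by limma, while 2 of the 5 genes of the Id and target group at 6 h and 4 at 48 h had an unadjusted p under 0.05, against 7.01% and 10.3% of all genes. Id1 signals at 6 h were 11.31, 11.01 and 10.69 in vehicle and 10.64, 10.09 and 10.69 in treated cells. At 48 h they were 10.87, 11.22 and 10.98 in vehicle and 11.65, 11.46, 11.83 and 11.92 in treated cells. The groups touched at 6 h (-0.53, SE 0.18, adjusted p = 0.54) and were apart at 48 h (0.69, SE 0.17, adjusted p = 0.0833).

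Id3 had the same layout, with 10.77, 11.05 and 10.60 against 10.66, 10.49 and 10.55 at 6 h and 10.58, 10.85 and 10.46 against 10.95, 11.15, 11.19 and 11.25 at 48 h. Its differences were -0.24 (adjusted p = 0.934) and 0.50 (SE 0.12, adjusted p = 0.0673). The response of Id1 at 48 h exceeded that at 6 h by 1.22 (95% interval 0.68 to 1.76, limma adjusted p = 0.0656), and that of Id3 by 0.74 (0.36 to 1.12, adjusted p = 0.143). Which side of the threshold Id1 and Id3 fell on at 48 h depended on the arrays used. Id1 at 48 h had an adjusted p of 0.0498 without vehicle 6 h replicate 1 and 0.0411 without 1,25D 6 h replicate 2, and up to 0.391 without other arrays. Its difference between times had 0.0419 without vehicle 6 h replicate 3, and up to 0.219 without others. Id3 at 48 h had 0.0372 without vehicle 6 h replicate 2 and 0.047 without vehicle 6 h replicate 3, and up to 0.367 without others.

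Id2 differed by -0.23 at 6 h and 0.25 at 48 h and overlapped at both. Id4 was lower on every treated array at each time, with 6.59, 6.76 and 7.04 against 6.23, 6.34 and 6.37 at 6 h and 6.34 to 6.42 against 5.76 to 6.19 at 48 h. Its differences were -0.48 (SE 0.15, limma adjusted p = 0.383) and -0.35 (SE 0.14, adjusted p = 0.541). Tgfbi, a matrix protein named for its induction by TGF-beta, was 7.45 to 7.79 in vehicle and 7.94 to 8.80 in treated cells at 48 h (0.66, SE 0.21, adjusted p = 0.275). The group of 5 had a median change of -0.24 at 6 h and 0.50 at 48 h. Arrays were apart in 4 of the 5 at 48 h, and in 12.6% of all genes.

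**Figure D4:**
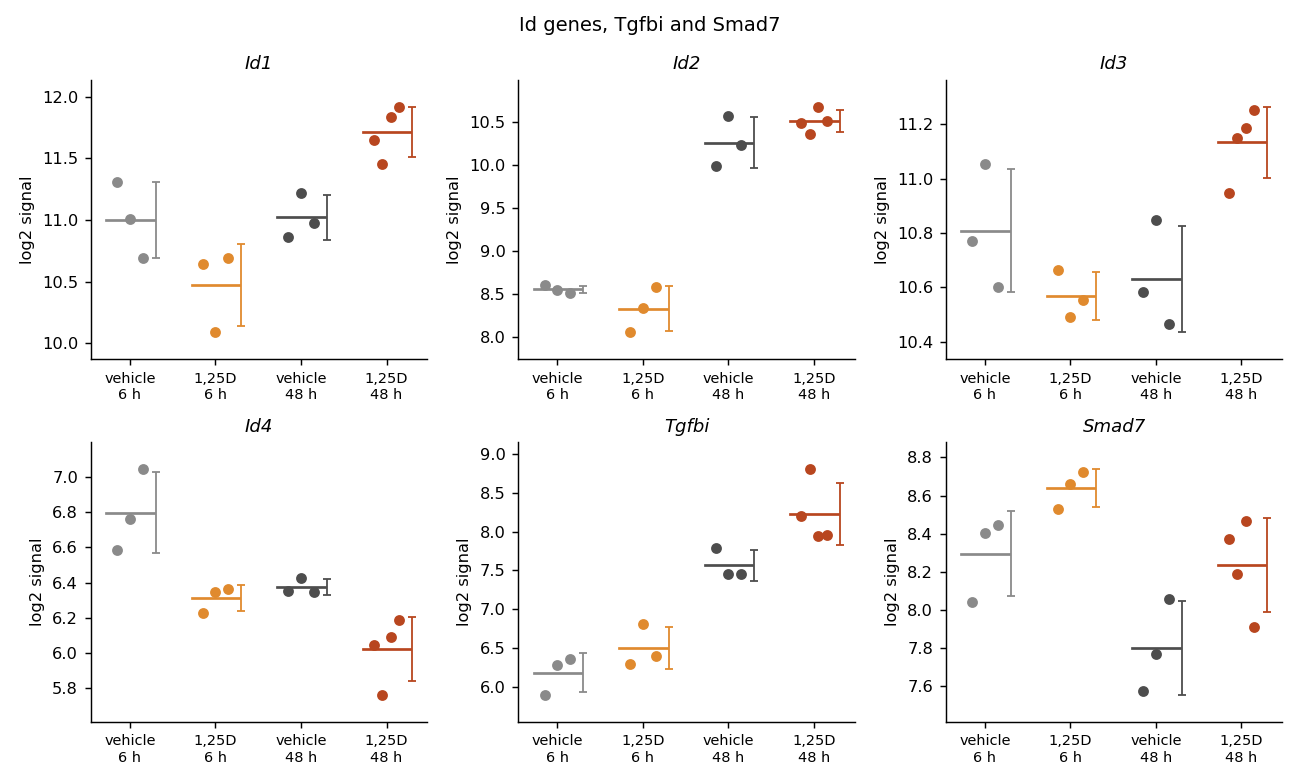
Log2 signal on each array for Id1 to Id4, Tgfbi and Smad7, by group. Points are arrays, horizontal lines group means and bars 1 SD (n = 3, or 4 for 1,25D at 48 h). At 48 h the 1,25D arrays of Id1 (11.46 to 11.92) and Id3 (10.95 to 11.25) lie above the vehicle arrays, and Id2 and Tgfbi are higher at 48 h than at 6 h with either treatment.

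Counting all 49 members by whether the arrays overlapped, 10 were apart at 6 h, 4 higher and 6 lower with 1,25D, against 10.2% of all genes. At 48 h 14 were apart, 9 higher and 5 lower, against 12.6%. Unadjusted p was under 0.05 for 10 members at 6 h, against 7.01% of all genes, and for 15 at 48 h, against 10.3%. In absolute size the median change was 0.16 at 6 h and 0.18 at 48 h among members, and 0.11 and 0.10 over all genes.

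Other genes of the pathway were taken as a second list of 72 symbols, of which 66 were measured. At 6 h 2 of these rose and 0 fell by limma, and at 48 h 3 rose and 1 fell, against 0.852% and 2.39% of all genes called. Unadjusted p was under 0.05 for 8 of the 66 at 6 h and 10 at 48 h, against 7.01% and 10.3% of all genes. Ccn2, the connective tissue growth factor gene and a TGF-beta target that also answers to other signals, rose from 10.30, 10.10 and 10.28 to 11.03, 11.07 and 11.02 at 6 h. At 48 h it rose from 10.61, 10.63 and 10.79 to 12.22, 12.32, 12.20 and 12.34. Its rise was 0.81 (SE 0.08, limma adjusted p = 0.000179) at 6 h and 1.59 (SE 0.08, adjusted p = 5.68e-08) at 48 h, and the difference of 0.78 between them was called (adjusted p = 0.00635). Tsc22d1, a leucine zipper gene first found as TGF-beta stimulated, rose by 0.62 at 6 h (adjusted p = 0.00023) and 0.27 at 48 h (adjusted p = 0.0451).

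Bmper, which binds BMPs outside the cell, rose by 1.19 at 48 h (SE 0.20, limma adjusted p = 0.00687), from 5.54, 5.12 and 5.49 to 6.66, 6.79, 6.68 and 6.17. Itgb8, the integrin subunit that releases TGF-beta from its latent form, fell by 1.49 at 48 h (SE 0.30, adjusted p = 0.0246), from 8.10, 8.12 and 7.92 to 6.67, 6.82, 6.89 and 5.86. For both genes the lone treated array below the rest was 1,25D 48 h replicate 4. The median change of this list was 0.01 at 6 h and 0.03 at 48 h.

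Some cell type markers moved with treatment at 48 h. The log2 of the summed signals of the 3 measured luminal markers was 14.75 to 14.78 in vehicle and 14.36 to 14.39 in treated cells at 48 h, with Krt8 (-0.43) and Krt18 (-0.34) lower. The summed signals of the 4 measured immune markers were 7.99 to 8.07 in vehicle and 8.52 to 8.94 in treated cells. This came through Cd68, a lysosomal glycoprotein gene (1.23, limma adjusted p = 0.000846). The leukocyte gene Ptprc (mean signal 4.13), Adgre1 (4.61) and Cd3e (6.88) differed by -0.11, 0.11 and 0.02 at 48 h without a call. Sums of the 10 stromal and of the 5 basal markers overlapped between treatments at both times. The part of these markers in the changes of the members was not tested. In cultures like these, fewer cells of a type and less RNA per cell cannot be told apart.

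More members were called with time in culture than with the hormone, and so were more of all genes. Of 18193 named genes 3382 were called with time, against 155 at 6 h and 434 at 48 h with the hormone. Between vehicle at 6 h and vehicle at 48 h 12 of 49 members (24.5%) were called, 10 higher and 2 lower at 48 h, against 18.6% of all genes, 9.84% higher and 8.75% lower. The arrays were apart for 18 members and 31.0% of all genes, and unadjusted p was under 0.05 for 23 members and 29.4% of all genes. Hours in culture and a day of processing cannot be told apart in this design. With only the vehicle groups fitted 8 members were called, and without both arrays that stand apart 15. Single markers moved with time as well: the basal gene Trp63 rose by 1.14 (limma adjusted p = 0.00376), Cd68 by 1.02 (0.00112) and Krt18 by 0.30 (0.000416). The other basal markers differed by -0.25 (Itgb4) to -0.01 (Krt14), and the other measured luminal markers by -0.02 (Krt8) and 0.02 (Pbsn). The other measured immune markers differed by -0.10 (Cd3e) to 0.07 (Ptprc), and none of these was called. Summed luminal signals were 14.57 to 14.68 at 6 h and 14.75 to 14.78 at 48 h in vehicle, while the basal, stromal and immune sums overlapped. The part of these markers in the changes with time was not tested. This comparison shares its vehicle arrays with the hormone comparisons, so values are only set side by side.

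The activin side of the family held 4 of these calls. Inhba fell by 1.19 (SE 0.22, limma adjusted p = 0.00224), from 10.30, 10.68 and 9.95 to 9.04, 9.28 and 9.04. Inhbb rose by 1.46 (SE 0.15, adjusted p = 1.56e-05), from 8.26, 8.81 and 8.77 to 9.98, 9.99 and 10.24. The type I receptors Acvr1 (ALK2, 0.86, adjusted p = 0.00438) and Acvr1b (0.73, adjusted p = 0.00379) rose as well. ALK2 serves BMPs and is counted here by its gene name. The beta subunits thus moved in opposite directions, and in both the arrays at the 2 times were apart. Of the other probe sets, a second Acvr1 probe set rose by 0.72 (adjusted p = 0.0034), while the dimmest of Acvr1 (-0.03) and one of Acvr1b (0.10) were not called. A second Inhbb probe set rose by 0.61 (adjusted p = 0.0285), and a second, dim Inhba probe set differed by 0.06 without a call.

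On the TGF-beta side Tgfbr3 rose by 1.61 (SE 0.18, limma adjusted p = 4.29e-05), Tgfb3 by 0.94 (adjusted p = 0.00164) and Tgfb2 by 0.68 (adjusted p = 0.00843) with time in vehicle. The other probe sets did not show these changes: the second of Tgfbr3 differed by 0.12 (adjusted p = 0.821), and those of Tgfb2 by 0.13, 0.24 and 0.24 (adjusted p = 0.679, 0.526 and 0.422). With only the vehicle groups fitted Tgfb2 was not called (adjusted p = 0.0546). The change with 1,25D at 48 h was 1.40 for Tgfbr3, -0.18 for Tgfb3 and -0.76 for Tgfb2. Tgfb1 was not called (0.17), but a second Tgfb1 probe set fell by 0.32 (adjusted p = 0.0421). Tgfbi rose by 1.38 (adjusted p = 0.000993) in the probe set used, and by 1.35 to 1.89 in its 3 other probe sets. Id2 rose by 1.71 (SE 0.16, adjusted p = 9.15e-06), from 8.60, 8.55 and 8.51 to 9.98, 10.56 and 10.22, and by 1.45 in a second probe set (adjusted p = 0.000143). Id1 (0.02), Id3 (-0.18) and Id4 (-0.42) were not called, but Id4 was without both arrays that stand apart (-0.53, adjusted p = 0.0175). Members not called with all arrays but called without these were Bmpr1b (-1.30, adjusted p = 0.000119), Smad7 (-0.63, 0.0127) and Acvrl1 (0.55, 0.0216), against -0.94, -0.50 and 0.14 with them.

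The calls of Ltbp2, Smad3 and Smurf1 with time were lost when single arrays were left out. Ltbp2, a matrix protein of the latent TGF-beta binding family, rose by 0.82 (limma adjusted p = 0.0193), with adjusted p of 0.0597 without vehicle 6 h replicate 1, and 0.0761 and 0.0598 without vehicle 48 h replicates 1 and 3. Smad3 rose by 0.63 (adjusted p = 0.0266), with 0.0891 and 0.0871 without vehicle 6 h replicates 1 and 2, and 0.113 and 0.0825 without vehicle 48 h replicates 1 and 3. Without both arrays that stand apart Smad3 had 0.49 (adjusted p = 0.0663). Smurf1 fell by 0.47 (adjusted p = 0.0368), with 0.131 and 0.136 without vehicle 6 h replicates 2 and 3, and 0.154 and 0.109 without vehicle 48 h replicates 1 and 2. Smurf1 also had 0.0525 without 1,25D 6 h replicate 1 and 0.0532 without 1,25D 48 h replicate 3. The other Smad3 probe sets (0.17 and 0.45) and Smurf1 probe set (-0.32) were not called. Over all alternatives adjusted p ran up to 0.0761 for Ltbp2, 0.557 for Smad3 and 0.154 for Smurf1.

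**Figure D5:**
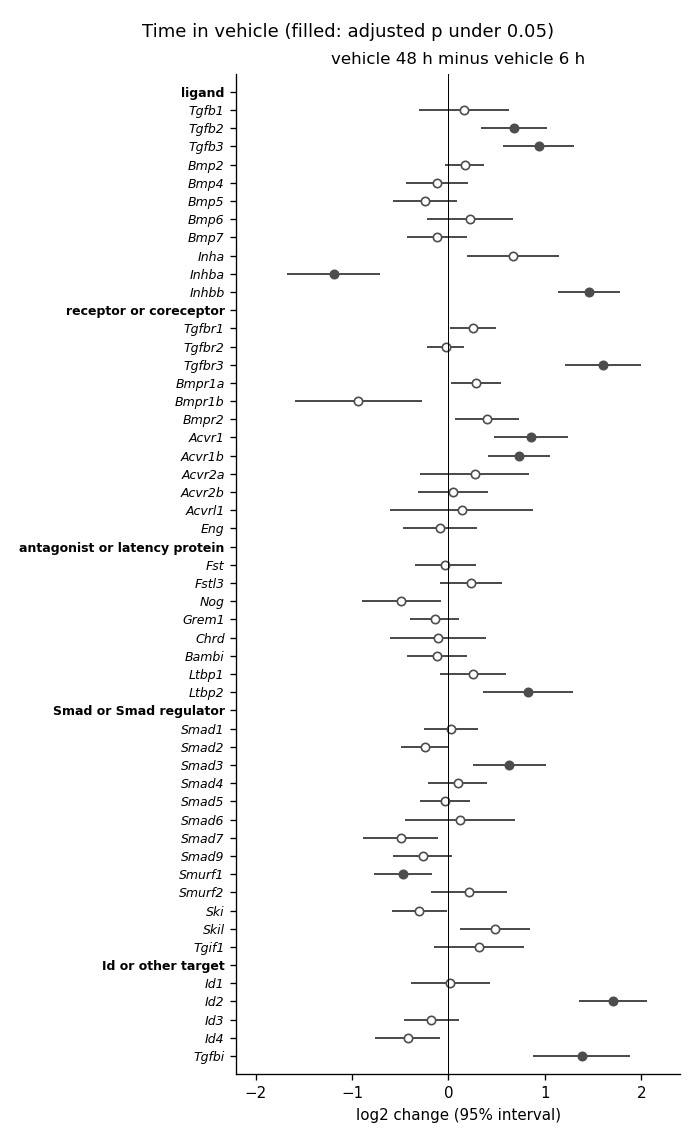
Change in log2 signal between vehicle at 48 h and vehicle at 6 h for the 49 measured members, ordered by role. Points are differences of group means with 95% intervals from limma, and filled points are called. Id2 (1.71), Tgfbr3 (1.61) and Inhbb (1.46) lie farthest to the right and Inhba (-1.19) farthest to the left.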

How the data were processed

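RNA of 13 samples was hybridised to Affymetrix mouse arrays from 5 ug each, per the labels' protocols. The deposited values are log2 signals, per the values' own range, and MAS5 is the tool named in the submitters' processing notes, with no version. Other steps are not given in the sources used here. The series' design text speaks of an A chip, but the deposited table covers 45101 probe sets, more than that chip carries. Of 45037 probe sets left without 64 controls, 34945 had 1 gene symbol, 932 several and 9160 none in the platform annotation, and none was named from several.

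Group means of the 4 groups were fitted in limma 3.58.1 (R 4.3.3) over all 13 arrays, with eBayes and an intensity trend and with two-sided tests adjusted by Benjamini-Hochberg over 45037 probe sets. The log2 values were used as deposited. The planned offset of 16, meant for linear values, became an alternative. Background percentages count 1 probe set for each of 18193 genes. Members called in any comparison were described array by array, and others by role, with separated or bright members named, and a few more named after their values were seen to complete a group. The members, lists and rules were chosen with earlier results of these data known.

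Alternatives were another offset, normalization, prior, filter, choice of samples, array weights, the replicate block, probe set choice and each array left out. On simulated data of 18193 genes, 87 of 100 changes of 1 were recovered at 6 h and 88 of 100 at 48 h, with 8 and 16 false calls. The simulation drew independent noise for each gene and array and adjusted over 18193 genes, not 45037 probe sets. Its shares are therefore not the power of the fit on these data. Figures were drawn with matplotlib 3.10.9 (Python 3.11.15).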

Additional observations from a re-analysis of the deposited data

Results flagged for a closer look

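Fst was flagged because its responses to 1,25D at the 2 times differed by the test of that difference (48 h minus 6 h, 1.11 on the log2 scale, limma adjusted p = 0.0256).

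In the group of 4 arrays, 1,25D at 48 h, single arrays stood off from the rest for 2 of 49 members, and chance flags about 1 in 20 groups. For Bmp4, replicate 2 was lowest at 10.64 with the next array at 10.89 (gap over range 0.89). For Nog, replicate 4 was highest at 5.41 with the next at 5.06 (gap over range 0.91), and this is one of the arrays with a narrow signal range.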

How the results depend on the processing

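Over the alternatives run, no called member reversed its direction. Beside 3 members called at 48 h, 5 were called with quantile normalization, 5 without the dimmest 40% of probe sets, 9 with array weights and 5 without the 2 arrays that stand apart, which added Inha and Bmpr1b. Calls over all genes at 48 h moved too, from 434 to 506, 488 (of 13374 genes), 1043 and 602 under these settings. For the difference between times, 1 member in the fit used, limma called 0 with no intensity trend (13 at an unadjusted p under 0.05), 2 without the dimmest 40%, 4 with array weights and 0 with the replicate block. Over all genes that difference had 115 calls, and 115, 144, 262 and 103 under these settings. Without the 2 arrays that stand apart it called 1, Inha in place of Fst (adjusted p = 0.0571). Leaving out each array in turn gave 2 to 3 members at 6 h, 2 to 5 at 48 h, 0 to 1 for the difference (9 to 13 at an unadjusted p under 0.05) and 9 to 14 for time in vehicle. At 48 h, 5 members passed when vehicle 6 h replicate 1 was dropped (adding Id1 and Inha) and when 1,25D 48 h replicate 4 was (adding Bmpr1b and Inha). For the difference, the 1 member without vehicle 6 h replicate 3 was Id1, not Fst.

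Replicate numbers were shared between groups. Deviations of same-numbered arrays correlated between -0.601 and 0.468 (median 0.0438), and those of differently numbered arrays between -0.639 and 0.761 (median 0.02). Every pair of replicate 3 was positive (0.0224 to 0.468), and pairs of the other numbers had both signs. The highest value, 0.761, joined the arrays that stand apart. These correlations therefore cannot decide whether numbers pair the arrays, because the arrays that stand apart weigh on them. With the replicate block adjusted p was 0.0605 for Tgfb2 at 48 h, 0.0701 for Fst between times and 0.0582 for Smurf1 with time, while Inhba at 6 h (0.0346) and Inha at 48 h (0.0339) passed. With only the compared groups fitted, Tgfb2 at 48 h had 0.0549, and 8 of the 12 members called with time passed (18 members with array weights), against 2366 of all genes in place of 3382 (4150 with array weights). Detection calls were not used here, so for members below the median signal no value says how much is background.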
